A study of Arabidopsis thaliana with 12 samples.

Results

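The peroxidase genes of Arabidopsis thaliana were taken as the genes whose description in the deposited expression table contains "Peroxidase superfamily protein". There were 56 such genes among 25566 genes in the table. They were compared between mettl16 mutant plants and plants of the reference accession Col-0. The mutant is in the Col-0 background, and the labels give neither its locus nor its allele, nor whether it is a single line. The aerial part was collected from 3-week-old seedlings grown at 23 °C with 16 h of light and 8 h of darkness a day. Each genotype had 3 RNA-seq libraries and 3 libraries of RNA immunoprecipitated with an antibody against N6-methyladenosine (m6A), labelled as biological replicates, and the study's stated interest was m6A in the floral transition. Expression is given as FPKM, the fragments counted on a gene scaled by its length and by library size.

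Class III peroxidases are secreted, heme-containing plant enzymes that oxidise phenolic compounds with hydrogen peroxide. In the cell wall they couple monolignols into lignin and cross-link wall proteins such as extensins, and they can also produce reactive oxygen species that loosen walls or act in defence. Laccases share the coupling of monolignols, using molecular oxygen in place of hydrogen peroxide. METTL16 is an m6A methyltransferase, and its Arabidopsis homologue FIO1 is known for delaying flowering.

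The annotation of the 56 genes was nearly uniform. 55 carried the KEGG entry for peroxidase and the annotated peroxidase activity, and 52 were annotated to the extracellular region. The 1 exception was DOX1 (AT3G01420), an alpha-dioxygenase of fatty acid oxidation, which the description takes in. 28 were annotated to the plant-type cell wall. The gene models spanned 981 to 4050 bases, with a median of 1682.5. All 56 were found in RefSeq, where 7 had a gene symbol, or 11 with its synonyms counted, and the others are given by locus identifier.

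FIO1, taken from general knowledge as the gene behind the mutant's name, had 0.292, 0.148 and 0.197 FPKM in the mettl16 libraries, against 1.98, 2.12 and 2.31 FPKM in the Col-0 libraries. The groups did not overlap, and the log2 change was -1.37 (SE 0.0853, limma adjusted p = 4.94e-07). FPKM summed over the table ran from 699031 to 706690 in mettl16 and from 714685 to 718824 in Col-0. FPKM does not store sequencing depth. In the mettl16 libraries 1970, 1939 and 2171 genes stood at 0, against 3120, 2622 and 2590 genes in the Col-0 libraries. Leaf markers were abundant in both genotypes, with summed levels of 35258 to 37588 FPKM in mettl16 and 35325 to 36719 FPKM in Col-0. RBCS1A made up most of these sums, and LHCB3, a light-harvesting protein, was lower at 2432 ± 51.2 FPKM in mettl16, against 3522 ± 263 FPKM in Col-0 (SD, n = 3 each), a log2 change of -0.53 (limma adjusted p = 3.62e-05). The 7 floral organ markers (AP1, AP3, PI, AG, SEP1, SEP2 and SEP3) summed to 78.9 to 80.5 FPKM in mettl16, against 2.46 to 2.76 FPKM in Col-0. All 7 were called higher, but 6 of them passed the filter on level (0.5 FPKM on average) through mettl16 alone, so that count was largely fixed by the filter. The 8 anther and pollen markers summed to 11.9 to 13.7 FPKM in mettl16 and to 0.0706 to 0.162 FPKM in Col-0, where 7 of the 8 were listed at 0 in every library. Floral and anther transcripts thus differed between the genotypes beside every peroxidase result given here, and their part in those results was not tested. In bulk tissue, a different number of cells of a type and a different amount of RNA per cell cannot be told apart.

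The peroxidase genes spanned levels from 0 to 1411 FPKM, and most were low in these aerial parts. A mean of at least 10 FPKM was reached by 7 genes in mettl16 and by 9 in Col-0, and a mean of at least 1 FPKM by 24 genes in each genotype. The first 3 places by mean FPKM were held in both genotypes by PRXR1, AT1G71695 and AT3G28200, which together made up 86.2% ± 0.150 of the summed peroxidase FPKM in mettl16 and 90.9% ± 0.201 in Col-0 (SD, n = 3 each). In Col-0 they were followed by AT4G37520, AT5G58390, AT5G40150, AT5G51890, AT4G37530, PRX71 and AT2G22420. In mettl16 the fourth place was held by PER64, which was in place 48 of 56 in Col-0. The following places in mettl16 were those of AT5G51890, AT5G40150, AT2G22420, AT4G37520, AT5G58390 and AT1G44970.

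A gene was tested when its mean over the 6 libraries was at least 0.5 FPKM, and a change is the difference of log2(FPKM + 1) between mettl16 and Col-0, which understates the change of low genes. 30 of the 56 peroxidase genes were tested and 26 were not. Of the 30, 4 had a Col-0 mean under 0.5 FPKM and were tested through mettl16 alone (PER64, AT1G44970, AT4G16270 and PRX72), and 2 were tested through Col-0 alone (AT4G11290 and Prx37). The genes just inside the limit were PRX72, Prx37 and AT4G25980, with means over the 6 libraries of 0.562, 0.608 and 0.817 FPKM. Those just outside it were AT5G15180, AT1G68850 and DOX1, with 0.465, 0.411 and 0.304 FPKM.

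Among the 30 tested genes, 11 were higher in mettl16, 12 were lower and 7 did not pass (limma, adjusted p under 0.05 over all 19505 tested genes). Over all tested genes, 41.1% were higher and 23.4% were lower, so the higher peroxidase genes, 36.7% of those tested, were near that background, and the lower ones made up 40%. A change of at least 1 on the log2 scale was reached by 3 peroxidase genes upward and 3 downward, where 3.02% and 2.04% of all tested genes did so. The 3 upward genes were tested through mettl16 alone, and AT4G11290 among the downward ones through Col-0 alone. For these genes the filter fixed the direction in advance. Of all 19505 tested genes, 501 were tested through mettl16 alone and 210 through Col-0 alone, beside 4 and 2 of the 30. The median log2 change was -0.02 over the 30 genes and 0.08 over all tested genes. The median of the absolute log2 change was 0.61 for the peroxidase genes and 0.24 for all tested genes. Both medians include the genes tested through mettl16 or Col-0 alone. All mettl16 libraries lay above all Col-0 libraries for 11 of the 30 genes and below them for 13, while 6 overlapped. Over all 19505 tested genes, 8558 lay above, 5049 lay below and 5898 overlapped, so a lack of overlap was common. Centring each library on its median left 10 peroxidase genes higher and 13 lower, beside 6520 higher and 5893 lower genes in all. Quantile normalization gave 10 higher and 14 lower peroxidase genes, beside 6088 higher and 6252 lower genes in all.

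**Figure D1:**
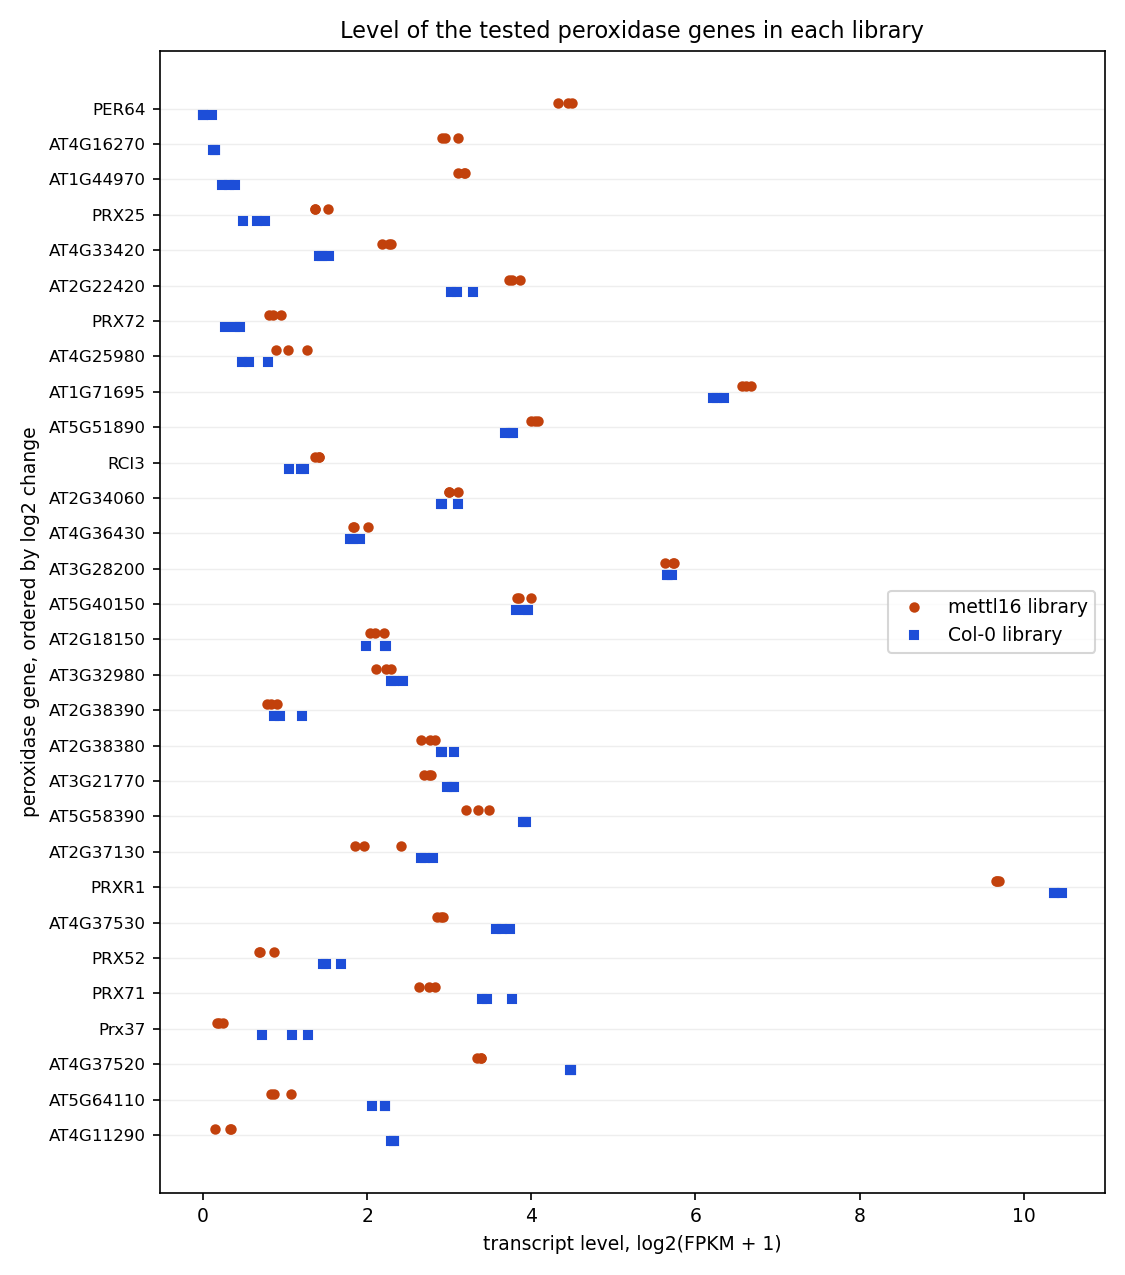
Transcript level of the 30 tested peroxidase genes, as log2(FPKM + 1), in each of the 3 mettl16 libraries (circles, upper) and the 3 Col-0 libraries (squares, lower). Genes run from the largest increase (PER64) at the top to the largest decrease (AT4G11290) at the bottom; PRXR1 lies far to the right of the other genes in every library.

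PER64 had the largest change of the 30 genes. It encodes a peroxidase known from the root endodermis, where it takes part in building the lignin of the Casparian strip. PER64 (AT5G42180; chromosome 5, 16852630 to 16854224, plus strand, build TAIR10) had 19.0, 21.5 and 20.8 FPKM in the mettl16 libraries, against 0.0792, 0 and 0 FPKM in the Col-0 libraries. It was listed at 0 in 2 of the 3 Col-0 libraries, and the groups were far apart. PER64 was tested through mettl16 alone, so the direction of its change was fixed by the filter. The log2 change was 4.38 (SE 0.0698, limma adjusted p = 7.66e-11), and it was 7.40 with a pseudocount of 0.1, since the size of this change depends on the pseudocount.

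The genes that PER64 is known to work beside in the Casparian strip were low in both genotypes. Of 9 such genes, 7 were in the table and only ESB1 and SGN3 reached the level for testing. ESB1, a dirigent protein of the strip, averaged 1.55 ± 0.534 FPKM in mettl16 and 1.70 ± 0.291 FPKM in Col-0. SGN3, a receptor kinase of the endodermis, averaged 1.10 ± 0.0990 FPKM in mettl16 and 0.917 ± 0.132 FPKM in Col-0 (SD, n = 3 each). Neither passed with limma, nor at an unadjusted p under 0.05. CASP1, CASP2 and CASP4, the scaffold proteins of the strip, were at no more than 0.384 FPKM in any library. With no filter on level, limma called 2 of the 7 genes of this list as higher in mettl16. That setting called 8706 genes higher, of at most 25566 genes in all. Among root markers, PYK10 averaged 66.4 ± 2.16 FPKM in mettl16 and 64.2 ± 1.13 FPKM in Col-0 and did not pass (adjusted p = 0.225, limma). The other 4 root markers in the table were not tested, and 2 of them were listed at 0 in every Col-0 library. With no filter on level, 2 of the 5 root markers in the table were called higher in mettl16, beside the same 8706 genes in all.

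AT4G16270 and AT1G44970 followed, and both are annotated to the development of the anther tapetum, the cell layer that nourishes pollen. AT4G16270 (chromosome 4, 9205016 to 9206552) had 6.74, 7.63 and 6.54 FPKM in mettl16, against 0.0862, 0.107 and 0.111 FPKM in Col-0. AT1G44970 (chromosome 1, 17002117 to 17003688) had 8.12, 7.63 and 8.06 FPKM in mettl16, against 0.242, 0.312 and 0.174 FPKM in Col-0. Every mettl16 library lay above every Col-0 library for both genes. Both were tested through mettl16 alone, so the direction of their change was fixed by the filter. The log2 changes were 2.85 for each, with SE 0.0772 and adjusted p = 2.05e-09 for AT4G16270 and SE 0.0729 and adjusted p = 1.39e-09 for AT1G44970 (limma). They are the only 2 of the 56 genes with this annotation, and their place among the peroxidase genes was 12 in mettl16 and 40 in Col-0 for AT4G16270, and 10 in mettl16 and 36 in Col-0 for AT1G44970. Beside them, the tapetum genes A6, A7 and A9 averaged 3.21, 2.66 and 4.40 FPKM in mettl16 and were listed at 0 in every Col-0 library. AMS, a transcription factor of the tapetum, averaged 1.78 ± 0.190 FPKM in mettl16 and 0.108 ± 0.0481 FPKM in Col-0 (SD, n = 3 each). What these anther genes share with the 2 peroxidase genes was not tested.

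The 5 genes annotated to lignin were all tested, and they split. Of them 3 were higher and 2 were lower, beside 41.1% higher and 23.4% lower over all tested genes. PRX25 (AT2G41480), annotated to lignin metabolism and wall organisation, had 1.87, 1.58 and 1.58 FPKM in mettl16, against 0.407, 0.580 and 0.686 FPKM in Col-0. The mettl16 libraries were all above those of Col-0, with a log2 change of 0.78 (SE 0.0941, limma adjusted p = 5.39e-05). AT2G22420 is annotated to lignin biosynthesis and to the change of the meristem from vegetative to reproductive growth. It had 12.3, 12.6 and 13.6 FPKM in mettl16, against 8.76, 7.13 and 7.52 FPKM in Col-0. The groups did not overlap, and the log2 change was 0.65 (SE 0.0708, limma adjusted p = 2.72e-05). PRX72 (AT5G66390), annotated to lignin biosynthesis, stood at a lower level, with 0.747, 0.935 and 0.808 FPKM in mettl16 and 0.210, 0.367 and 0.306 FPKM in Col-0, again without overlap. Its log2 change was 0.50 (SE 0.0893, limma adjusted p = 0.000788). PRX72 was tested through mettl16 alone, so the direction of its change was fixed by the filter.

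PRX52 and PRX71 were the lignin-annotated genes that fell. PRX52 (AT5G05340), annotated to syringyl lignin and xylem development, had 0.821, 0.623 and 0.6001 FPKM in mettl16, against 1.83, 1.77 and 2.21 FPKM in Col-0. PRX71 (AT5G64120), annotated to lignin metabolism, the respiratory burst and defence against fungi, had 5.72, 5.20 and 6.07 FPKM in mettl16, against 10.02, 12.6 and 9.54 FPKM in Col-0. For both, every mettl16 library was below every Col-0 library. The log2 changes were -0.80 for PRX52 (SE 0.0917, adjusted p = 3.77e-05) and -0.81 for PRX71 (SE 0.0967, adjusted p = 8.22e-05), both by limma.

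5 further genes were higher in mettl16. AT4G33420 had 3.55, 3.89 and 3.83 FPKM in mettl16, against 1.67, 1.74 and 1.90 FPKM in Col-0, a log2 change of 0.78 (limma adjusted p = 6.72e-06). AT1G71695, the second most abundant of the 56 genes, had 97.1, 101.7 and 93.6 FPKM in mettl16, against 73.2, 80.4 and 76.0 FPKM in Col-0. The groups stood apart although its log2 change was only 0.34 (SE 0.0416, limma adjusted p = 5.63e-05). AT5G51890 averaged 15.4 ± 0.519 FPKM in mettl16 and 12.4 ± 0.494 FPKM in Col-0 (SD, n = 3 each), a log2 change of 0.30. AT4G25980 averaged 1.11 ± 0.280 FPKM in mettl16 and 0.528 ± 0.176 FPKM in Col-0, a log2 change of 0.46. RCI3, named for its induction by cold, averaged 1.63 ± 0.0467 FPKM in mettl16 and 1.23 ± 0.145 FPKM in Col-0, a log2 change of 0.24 (limma adjusted p = 0.0239). The RCI3 call was lost when mettl16 replicate 2, mettl16 replicate 3 or Col-0 replicate 1 was left out, with adjusted p = 0.0625, 0.0595 and 0.0801.

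**Figure D2:**
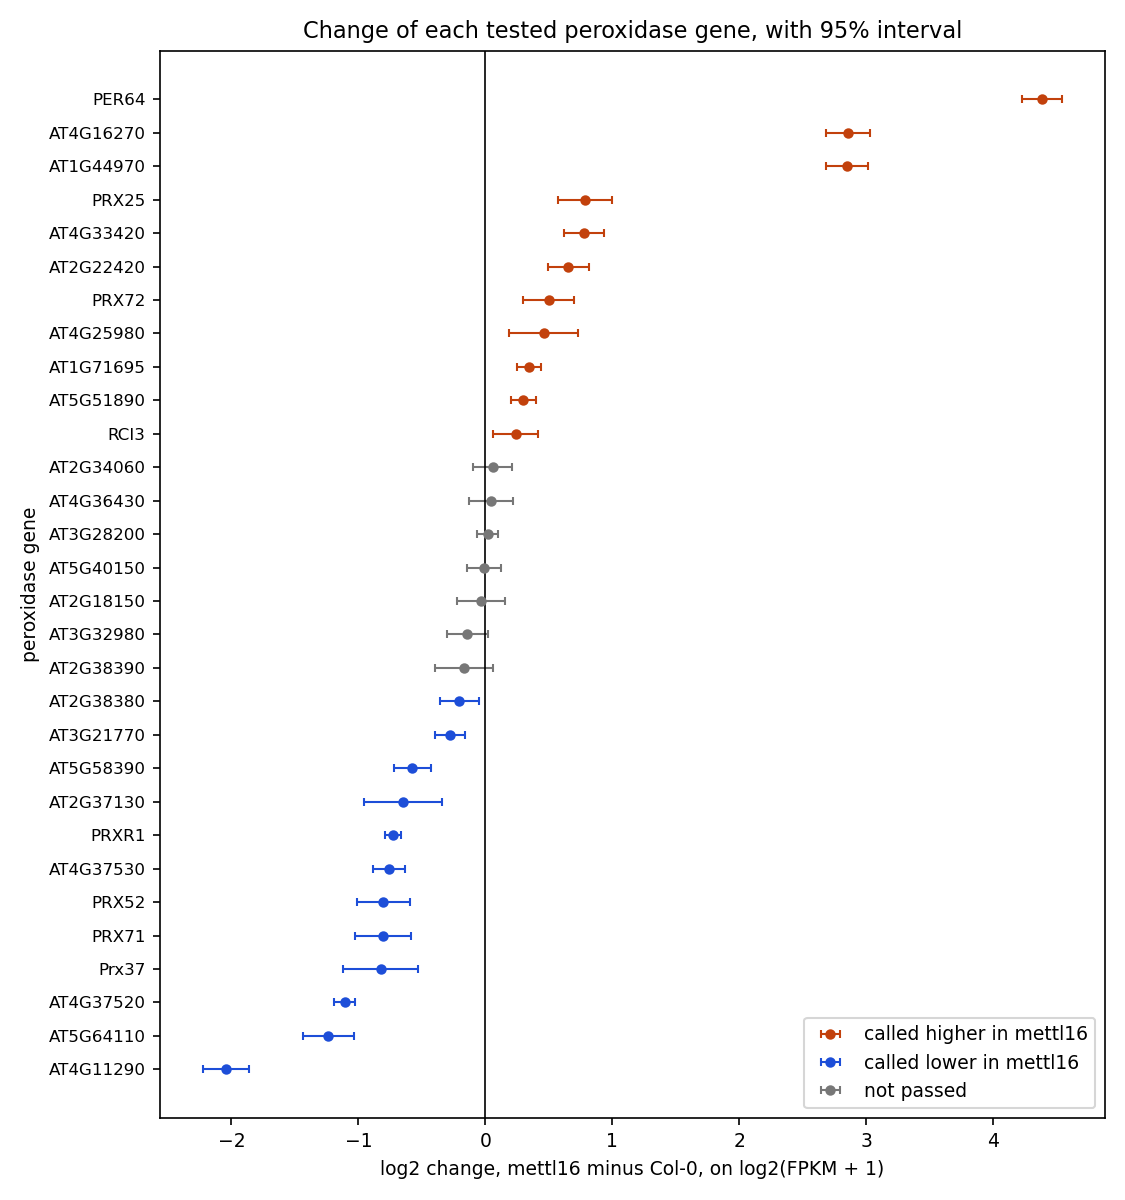
Change of each tested peroxidase gene, mettl16 minus Col-0 on the log2(FPKM + 1) scale, with its 95% interval from limma. 11 genes lie to the right of 0 (called higher), 12 to the left (called lower) and the intervals of 7 cross 0; PER64, AT4G16270 and AT1G44970 stand apart on the right and AT4G11290 on the left.

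Among the genes that fell, PRXR1 set the total. PRXR1 (AT4G21960; chromosome 4, 11646174 to 11648462, minus strand) had 806.3, 830.8 and 812.7 FPKM in mettl16, against 1331, 1411 and 1323 FPKM in Col-0. The libraries of the genotypes lay far apart relative to their spread, with means of 817 ± 12.7 FPKM in mettl16 and 1355 ± 48.5 FPKM in Col-0 (SD, n = 3 each). The log2 change was -0.73 (SE 0.0287, limma adjusted p = 2.39e-08). PRXR1 alone made up 72.9% ± 0.323 of the summed peroxidase FPKM in mettl16 and 83.1% ± 0.205 in Col-0.

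The summed FPKM of the 56 genes was 1107, 1144 and 1109 in the mettl16 libraries, against 1601, 1693 and 1596 in the Col-0 libraries. This was 0.160% ± 0.00349 of all FPKM in mettl16 and 0.227% ± 0.00830 in Col-0 (SD, n = 3 each). Without PRXR1 the order turned, and the sum was 300.5, 312.7 and 296.2 FPKM in mettl16 and 270.7, 282.7 and 273.0 FPKM in Col-0. The groups did not overlap in either sum. The turn holds only for genes with this description. PRXCB, a peroxidase gene described in other words, is in neither sum. It averaged 79.9 FPKM in mettl16 and 151 FPKM in Col-0, a wider gap than that between the sums without PRXR1.

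**Figure D3:**
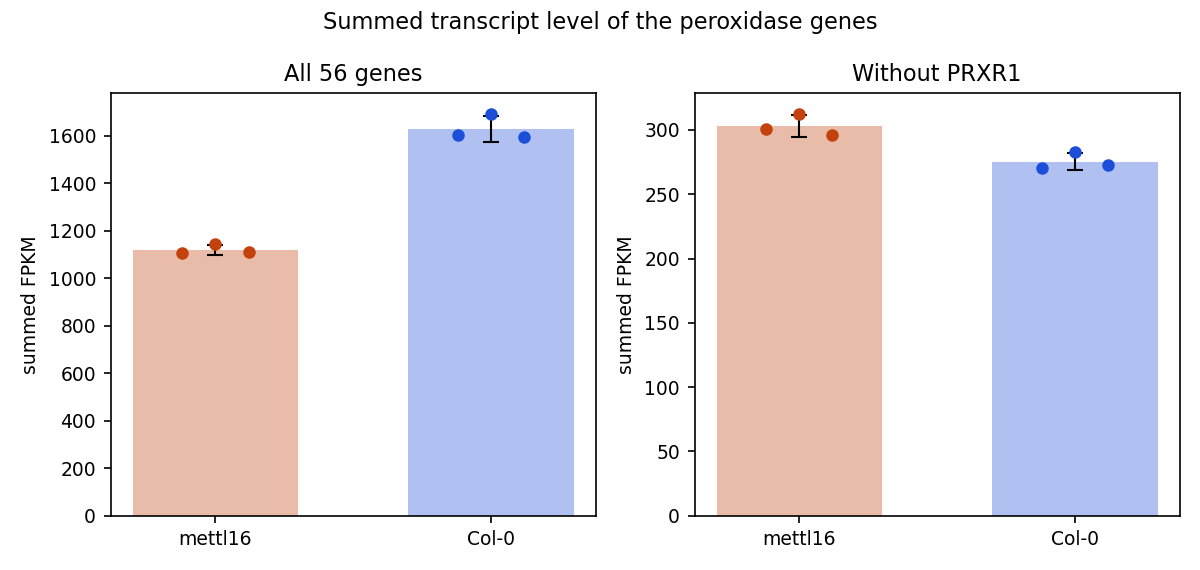
Summed FPKM of the 56 peroxidase genes (left) and of the 55 genes without PRXR1 (right), for mettl16 and Col-0; points are libraries, bars are means and error bars are SD, n = 3 each. With PRXR1 the mettl16 libraries lie below those of Col-0, and without it they lie above. Peroxidase genes described in other words, PRXCB among them, are in neither sum.

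AT4G11290 had the largest decrease. It had 0.263, 0.254 and 0.111 FPKM in mettl16, against 3.88, 4.02 and 4.03 FPKM in Col-0, so its place among the peroxidase genes was 35 in mettl16 and 16 in Col-0. The log2 change was -2.04 (SE 0.0804, limma adjusted p = 2.36e-08). Prx37 (AT4G08770), annotated to the negative regulation of growth, was low in both genotypes, at 0.123, 0.149 and 0.183 FPKM in mettl16 and 1.42, 1.12 and 0.650 FPKM in Col-0. The groups did not overlap, though Col-0 spread widely, and the log2 change was -0.82 (SE 0.132, limma adjusted p = 0.000389). AT4G11290 and Prx37 were both tested through Col-0 alone, so the direction of their change was fixed by the filter.

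Of the 4 genes annotated to defence against fungi, PRX71 and AT2G37130 were tested, and both fell, beside 23.4% of all tested genes. AT2G37130 had 2.61, 4.32 and 2.89 FPKM in mettl16, against 5.31, 6.003 and 5.53 FPKM in Col-0. Its mettl16 libraries were uneven, with replicate 2 closest to Col-0, yet all lay below Col-0, with a log2 change of -0.65 (SE 0.135, limma adjusted p = 0.0029). The other 2, DOX1 and AT5G39580, were not tested. DOX1 had 0.242, 0.202 and 0.227 FPKM in mettl16 and 0.312, 0.336 and 0.506 FPKM in Col-0.

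AT5G58390 had 9.24, 10.2 and 8.23 FPKM in mettl16, against 14.4, 14.0 and 14.2 FPKM in Col-0, with no overlap and a log2 change of -0.58 (SE 0.0651, limma adjusted p = 3.51e-05). AT3G21770 averaged 5.69 ± 0.199 FPKM in mettl16 and 7.12 ± 0.262 FPKM in Col-0 (SD, n = 3 each), a log2 change of -0.28 (limma adjusted p = 0.00116).

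Peroxidase genes often lie beside each other in the genome, and 17 of the 56 fell in 8 groups of neighbours no more than 10 kb apart. In 3 of these groups at least 2 genes were tested. AT4G37520 and AT4G37530, 1534 bases apart on chromosome 4, were both lower. AT4G37520 had 9.16, 9.46 and 9.43 FPKM in mettl16, against 21.3, 21.3 and 21.4 FPKM in Col-0, with a log2 change of -1.11 (SE 0.0375, limma adjusted p = 8.77e-09). AT4G37530 had 6.44, 6.61 and 6.24 FPKM in mettl16, against 10.9, 11.5 and 12.4 FPKM in Col-0, with a log2 change of -0.76 (SE 0.0544, limma adjusted p = 1.36e-06).

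On chromosome 5, AT5G64110 and PRX71 were both lower, while AT5G64100 next to them was at no more than 0.0492 FPKM in any library. AT5G64110 had 1.11, 0.830 and 0.773 FPKM in mettl16, against 3.16, 3.64 and 3.64 FPKM in Col-0, with a log2 change of -1.24 (SE 0.0900, limma adjusted p = 1.51e-06). On chromosome 2, AT2G38380 averaged 5.76 ± 0.404 FPKM in mettl16 and 6.78 ± 0.496 FPKM in Col-0, a log2 change of -0.20 (limma adjusted p = 0.0229). That call was lost without mettl16 replicate 2 or without Col-0 replicate 2, with adjusted p = 0.0859 and 0.0875. Its neighbour AT2G38390 averaged 0.785 ± 0.0749 FPKM in mettl16 and 1.02 ± 0.255 FPKM in Col-0 (SD, n = 3 each) and did not pass (adjusted p = 0.172). Neighbouring genes of a family can be near-identical copies, which was not checked here, and the sources used here do not say how the authors' counting divided reads between such copies, so the values within each group are uncertain to that extent.

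In the other neighbour groups only 1 gene or none was tested. RCI3, AT4G25980, Prx37 and AT5G58390 were each called while their neighbours AT1G05240, AT4G26010, AT4G08780 and AT5G58400 were not tested, at no more than 0.429 FPKM in any library.

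7 genes did not pass, among them 2 of the most abundant. AT3G28200 had 52.2, 52.0 and 48.3 FPKM in mettl16, against 49.6, 51.7 and 49.4 FPKM in Col-0. The groups overlapped, and the 95% interval of the log2 change ran from -0.07 to 0.10. For AT5G40150, at 13.9 ± 0.987 FPKM in mettl16 and 14.0 ± 0.789 FPKM in Col-0 (SD, n = 3 each), the interval was -0.14 to 0.12. The intervals were -0.10 to 0.21 for AT2G34060, -0.13 to 0.22 for AT4G36430 and -0.22 to 0.15 for AT2G18150. For AT3G32980, with 3.33, 3.70 and 3.88 FPKM in mettl16 and 4.04, 3.89 and 4.42 FPKM in Col-0, the interval was -0.30 to 0.02. AT3G32980 passed as lower after median centring (adjusted p = 0.0254) and after quantile normalization (adjusted p = 0.0102), and AT2G38390 passed as lower after quantile normalization (adjusted p = 0.0181), all by limma.

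The 26 untested genes were at no more than 0.533 FPKM in any mettl16 library and 0.721 FPKM in any Col-0 library. They include PER4 (0.145 FPKM in mettl16 and 0.365 FPKM in Col-0 on average) and PER36, which was listed at 0 in all 3 Col-0 libraries and in 1 mettl16 library. Of the 56 genes, 15 were listed at 0 in at least 1 library, 5 of them in every Col-0 library and 0 in every mettl16 library. Those 5 were at no more than 0.0674 FPKM in any mettl16 library. Over the whole table, 2590 to 3120 genes stood at 0 in a Col-0 library and 1939 to 2171 in a mettl16 library. The share of all genes at 0 in every Col-0 library was not counted. With no filter on level, limma called 6 of the untested genes, namely AT5G14130 and AT5G47000 as higher and AT2G18980, AT3G49960, AT5G19880 and DOX1 as lower. That setting called 8706 genes higher and 4728 lower, of at most 25566 genes, so such calls were common.

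The table also holds 7 genes whose description begins with peroxidase in other words, and 4 of them were tested. PRXCB had 79.4, 80.4 and 80.1 FPKM in mettl16, against 149.0, 149.1 and 155.4 FPKM in Col-0, a log2 change of -0.91 (SE 0.0273, limma adjusted p = 4.03e-09). PRXCA averaged 15.3 ± 0.223 FPKM in mettl16 and 26.9 ± 1.17 FPKM in Col-0 (SD, n = 3 each), a log2 change of -0.78. AT3G17070 was higher by 0.60 and PA2 by 0.27 on the log2 scale. With these 7 genes added, 13 peroxidase genes were higher and 14 lower, a set chosen after seeing the data.

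The m6A data were read from the authors' deposited table of peaks, with a log2 fold change taken as mettl16 over Col-0 from the order of the genotypes in the table's name. The authors' deposited table holds 3 rows for the 56 genes, all annotated to the 3′ UTR. A peak row was assigned to 5.36% of the peroxidase genes and to 23.4% of all genes in the expression table. Where the mean over the libraries reached 10 FPKM the shares were 33.3% (3 of 9) and 34.8%. One of the 3 rows is that of PER64, whose peak lies almost wholly in another gene, as given below. PER64 averaged 20.4 FPKM in mettl16 and 0.0264 FPKM in Col-0, so it reached 10 FPKM through mettl16 alone. PRXR1, the most abundant, had no row in the authors' deposited table.

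In the authors' deposited table, 2 of the 3 rows, those of AT1G71695 and PER64, were lower at an FDR under 0.05, where 51.6% of all 6437 rows were. If the fold ran the other way, these 2 rows would be higher in mettl16, and the share of all rows that is lower would be 17.6%. The peak of AT1G71695 (chromosome 1, 26966568 to 26966688) had a log2 fold of -0.47 (FDR 0.00257) in the authors' deposited table, against a median of -0.23 over all its rows, while the transcript of this gene was higher in mettl16. The peak of AT5G58390 (chromosome 5, 23599567 to 23599924) had a log2 fold of -0.17 and an FDR of 0.148 in the authors' deposited table, and its transcript was lower. Both peaks lie wholly within their gene and end exactly at its 3′ end.

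The row given to PER64 lies almost wholly in another gene. In the authors' deposited table this peak (chromosome 5, 16854191 to 16855290) had a log2 fold of -0.15 and an FDR of 0.000214. It consists of 2 blocks of 478 and 116 bases, split by 506 bases. Only 34 of the 594 block bases (5.72%) lie in PER64, and all 594 lie in AT5G42190, a gene for an SCF ubiquitin ligase subunit of the SKP1 family on the opposite strand. The 2 genes converge and overlap by 34 bases, the peak begins exactly at the end of AT5G42190 that lies within PER64, and it reaches 1066 bases past the end of PER64.

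AT5G42190 was expressed in both genotypes, at 49.6, 52.5 and 52.3 FPKM in mettl16, against 59.3, 63.1 and 58.7 FPKM in Col-0. Its log2 change was -0.23 (SE 0.0375, limma adjusted p = 0.00049), while PER64 was near 0 in Col-0. The authors' deposited table does not give a strand for the peak itself, so the transcript that carried it could not be told from the table alone. Over the whole of the authors' deposited table, 391 rows (6.07%) had under 50% of their block bases in the gene they were assigned to, and 158 rows (2.45%) had under 10%. Of the 417 rows assigned to genes with a Col-0 mean under 0.5 FPKM, 54 (12.9%) had under 50%.

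**Figure D4:**
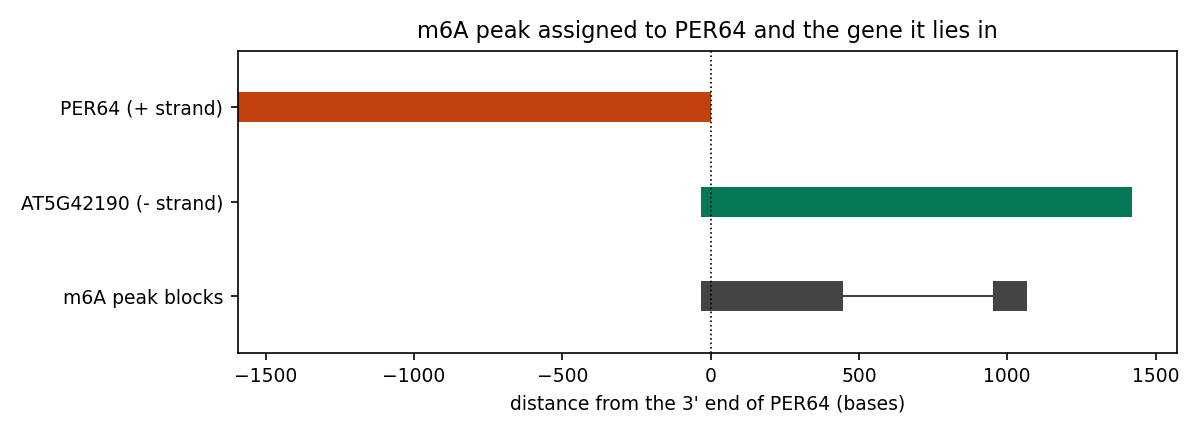
Map of the m6A peak that the authors' deposited table assigns to PER64, with distance in bases from the 3′ end of PER64 on the horizontal axis; bars are the gene models of PER64 and AT5G42190 and the 2 blocks of the peak, joined by a line across their gap of 506 bases. The blocks share 34 bases with PER64 and all 594 with AT5G42190.

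The enzymes that work before and beside the peroxidases were counted in lists. Of 19 genes of monolignol synthesis, 9 were higher, 7 were lower and 3 did not pass, beside 41.1% higher and 23.4% lower over all tested genes. The median log2 change was 0.08, beside 0.08 over all tested genes. After median centring or quantile normalization the higher count was 5. 4CL3, a CoA ligase, was higher by 0.98 on the log2 scale, and CCR2, a cinnamoyl-CoA reductase, was lower by 0.56. OMT1, a methyltransferase of syringyl units, was lower by 0.42, at 126.8 ± 2.48 FPKM in mettl16 and 170.3 ± 0.566 FPKM in Col-0 (SD, n = 3 each).

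Most tested laccases and most tested genes of the secondary wall were higher in mettl16. 8 of 12 tested laccases were higher and 1 was lower, beside 41.1% and 23.4% of all tested genes, with a median log2 change of 0.57. LAC12 and LAC5 were tested through mettl16 alone, and after quantile normalization 3 laccases were lower. LAC12 averaged 3.34 ± 0.206 FPKM in mettl16 and 0.368 ± 0.104 FPKM in Col-0, and LAC4, a laccase of lignin in stems, averaged 15.5 ± 0.507 FPKM in mettl16 and 8.26 ± 0.112 FPKM in Col-0 (SD, n = 3 each). Their log2 changes were 1.67 and 0.83. Of 12 tested genes of the secondary wall of vessels and fibres, 10 were higher and none was lower (limma, and likewise none lower at an unadjusted p under 0.05), beside 41.1% and 23.4% of all tested genes. The cellulose synthases CESA4, CESA7 and CESA8 of that wall were higher by 0.96, 1.01 and 0.97, and NST1, a regulator of fibre walls that was tested through mettl16 alone, by 0.95. The part of the floral transcripts given above in these counts was not tested.

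Extensins are wall proteins that peroxidases cross-link, and most tested genes of the list of extensins and LRX genes were lower in mettl16. Of 5 tested extensin and LRX genes 4 were lower and none was higher (limma, and none higher at an unadjusted p under 0.05), beside 23.4% lower and 41.1% higher over all tested genes. EXT3 averaged 17.1 ± 1.37 FPKM in mettl16 and 74.3 ± 1.63 FPKM in Col-0, a log2 change of -2.06. EXT4 averaged 24.9 ± 1.96 FPKM in mettl16 and 61.7 ± 1.72 FPKM in Col-0 (SD, n = 3 each), a log2 change of -1.28. The other lower genes, LRX3 and LRX5, changed less, with log2 changes of -0.28 and -0.26.

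Enzymes that make or remove the peroxide the peroxidases use were divided. RBOHD, an NADPH oxidase of the plasma membrane, was lower by 0.31 on the log2 scale, and RBOHF was higher by 0.19, a call that was lost after median centring, after quantile normalization and without Col-0 replicate 2. The other 5 NADPH oxidase genes in the table were not tested. Of 17 tested catalases, ascorbate peroxidases and glutathione peroxidase-like genes, which are not class III peroxidases, 5 were higher and 9 were lower, beside 41.1% and 23.4% of all tested genes. The catalase CAT2 averaged 1191 ± 8.33 FPKM in mettl16 and 671 ± 16.9 FPKM in Col-0, while CAT3 averaged 272 ± 5.66 FPKM in mettl16 and 690 ± 25.6 FPKM in Col-0 (SD, n = 3 each). Their log2 changes were 0.83 and -1.34, and that of GPX7 was 1.78. Of 7 superoxide dismutase genes, which produce hydrogen peroxide from superoxide, 2 were higher (FSD3 by 0.75 and FSD2 by 0.45) and 2 were lower (FSD1 by 0.67 and CSD1 by 0.18), which is near or below those shares of all tested genes.

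**Figure D5:**
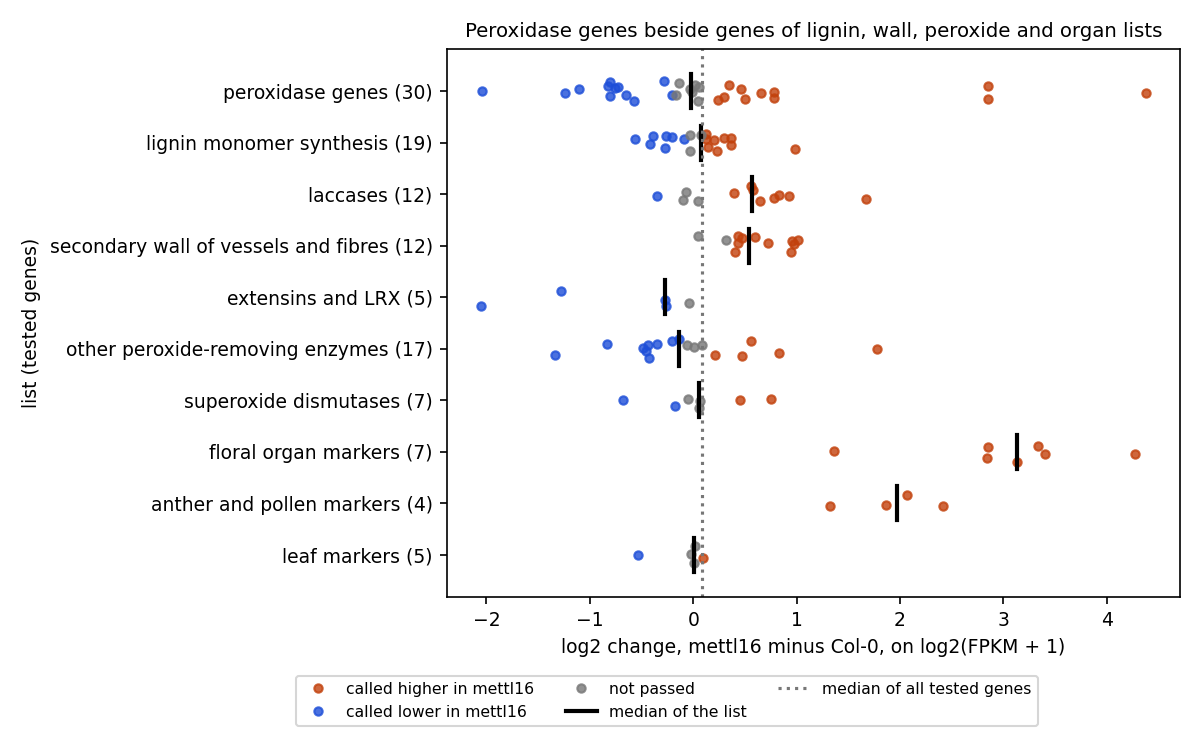
Log2 change, mettl16 minus Col-0 on log2(FPKM + 1), of each tested gene of the peroxidase genes and of 9 lists, with the number tested in brackets; a thick line marks each list's median and the dotted line the median of all tested genes, 0.08. The 30 peroxidase genes spread to both sides (median -0.02), laccases (median 0.57) and secondary wall genes (median 0.54) lie mostly to the right, and the floral organ markers (median 3.13) lie farthest right.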

How the data were processed

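Expression came from the authors' table of FPKM values, per the file headers, for 3 mettl16 and 3 Col-0 RNA-seq (input) libraries, each assigned by the genotype and number in its column name. Values for m6A came from the authors' deposited table of 6437 peak rows, whose columns, per the file headers, are the log2 fold change of a peak, the p-value and FDR of that change (the FDR as its log10, a score) and a p-value of peak detection. Per the labels' protocols, polyadenylated RNA was cut to about 100 nt, and m6A-enriched and input fragments became strand-marked libraries. Per the submitters' processing notes, cutadapt, fastp, HISAT2, StringTie, HOMER, edgeR and build TAIR10 were used; the sources used here do not state their roles, the peak caller or whether counting used strand. FPKM keeps no depth, so no count-based interval was possible.

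Genes whose 6 libraries averaged 0.5 FPKM or more entered the test on log2(FPKM + 1), made with limma 3.58.1 in R 4.3.3, using a trended, robust prior variance, two-sided, with Benjamini-Hochberg adjustment over all 19505 tested genes and a threshold of 0.05; tables were made with Python 3.11.15 and pandas 2.3.3. The test was checked on simulated data in which few genes changed, none of them low, so the check does not cover changes of genes near 0. Replicate numbers were not taken as pairs, since same-numbered libraries deviated with correlations of -0.0823, 0.00866 and 0.00173. Genes were named when called with a log2 change of size 1 or more, among the 10 highest in Col-0, given a role beforehand, holding a peak row, or neighbouring such a gene, and up to 4 called genes were named per list; other peroxidase genes were added after their values were seen. The peroxidase genes, the 12 gene lists and their members were chosen with earlier results of these data known. Gene names came from RefSeq (assembly TAIR10.1), which held 95.4% of the table's identifiers; coordinates were taken from the authors' files and start at 1. Alternatives covered the pseudocount, the filter, the scaling, the prior variance, the replicate block and each library left out.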

Additional observations from a re-analysis of the deposited data

How the results depend on the processing

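The counts of 11 higher and 12 lower peroxidase genes stayed within 1.5 times under every alternative run, from 9 to 13 higher and from 11 to 16 lower. Leaving out each library in turn gave 10 to 11 higher and 11 to 12 lower peroxidase genes, and 7374 to 7704 higher and 4208 to 4293 lower genes in all. With the replicate number as a block, 11 and 12 peroxidase genes and 7915 and 4494 genes were called, and the numbers were not taken to pair the samples. Of 416 values of single peroxidase genes under the alternatives, 406 kept their call or their lack of one. Of the others, 7 lost the call (RCI3 and AT2G38380), 3 gained one and 0 were called in the opposite direction. Genes that did not pass could change sign. The log2 change of AT3G28200 was 0.02, and it was -0.05 after median centring. RCI3 had adjusted p = 0.0906 after median centring and 0.377 after quantile normalization; over all alternatives its adjusted p ran from 0.00828 to 0.377. The median log2 change of the 30 genes was -0.09 after median centring, -0.12 after quantile normalization and -0.07 without mettl16 replicate 2. It was 0.004 after each library was rescaled to the same total, and 0.01 over all 56 genes with no filter. The sign of this median was thus not stable. Of all called genes, 63.7% were higher, and this share was 52.5% with median centring and 49.3% with quantile normalization. Of 336 list counts, 19 moved by more than 1.5 times. The cause of these shifts was not tested. Without counts, depth cannot be used to judge genes near 0.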
